A study of Homo sapiens with 12 samples.

Results

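The lysosomal enzymes and the vacuolar H+-ATPase (V-ATPase) were examined as 44 genes among the 29696 genes with an expression value. The genes were chosen by name, as the common subunits of the proton pump, the best known soluble hydrolases of the lysosome, a few lysosomal membrane proteins and precursors, and the transcription factors TFEB and TFE3. The cells were A375, a human melanoma cell line grown in DMEM with serum. Cells of the shALKBH5 group, whose labels give the genotype as ALKBH5 knockdown, had been infected with a lentivirus carrying a short hairpin RNA against the m6A demethylase ALKBH5, and cells of the shCtrl group, labelled wild type, carried the control hairpin that the paper calls Scramble. Both groups thus shared the lentiviral infection, and which of the ALKBH5 hairpins the sequenced cells carried is not given in the sources used here. Each group had 3 input RNA-Seq libraries and 3 m6A immunoprecipitation (IP) libraries, and the labels do not say whether the libraries came from separate cultures, so p-values measure the spread between these libraries, which may be technical. The comparison asked which lysosomal genes differed in RNA level, and where m6A lay on their transcripts, when ALKBH5 was reduced.

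The V-ATPase is a rotary proton pump that acidifies the lysosome. Its cytosolic V1 sector hydrolyses ATP and its membrane-embedded V0 sector carries the protons, and accessory proteins help to assemble the pump. Lysosomal hydrolases work at acidic pH, most reach the lysosome through mannose 6-phosphate receptors, and many of their genes are targets of TFEB and TFE3, basic helix-loop-helix factors of the MiT family that also holds the melanocyte regulator MITF.

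Expression is given as FPKM, a fragment count scaled to the length of the transcript and to the mapped fragments of the library, which allows levels of different genes to be compared per length. Differences are log2 fold changes of shALKBH5 over shCtrl on log2(FPKM + 0.1), from limma fitted across the 12985 genes that averaged 0.5 FPKM or more, and "rose" and "fell" are used for an adjusted p under 0.05 (Benjamini-Hochberg over all genes tested). On this scale the change of low genes is understated. TFEB, with a mean of 0.368 FPKM over the 6 libraries, and the cathepsin CTSK, with 0.461 FPKM, were under the filter, which left 42 members tested. ALKBH5 itself was 3.39, 3.92 and 3.12 FPKM in shALKBH5 and 19.3, 17.8 and 17.6 FPKM in shCtrl libraries (log2 fold change -2.36, SE 0.0887, limma adjusted p = 1.276e-06). The libraries within a group correlated at r = 0.981 to 0.984 over genes and those of different groups at r = 0.929 to 0.934. Of the melanoma markers SOX10 was high, with means of 180.5 and 184.2 FPKM, whereas MLANA was not among the listed genes and PMEL, TYR, TYRP1 and DCT had means of at most 0.611 FPKM in either group. As these are bulk libraries, fewer cells with a transcript and less of it per cell cannot be told apart.

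Lysosomal and V-ATPase transcripts were higher rather than lower in shALKBH5 cells in most cases. Of the 42 members tested, 26 rose, 7 fell and 9 did not pass the threshold. The share that rose was 61.9%, beside 34.7% of all genes tested, and the share that fell was 16.7%, beside 26.2% of all genes. The median log2 fold change of the members was 0.31, and that of all genes tested was 0.09, with quartiles of -0.28 and 0.42. In 29 members each shALKBH5 library was higher than every shCtrl library (69.0%, beside 38.0% of all genes), and in 8 each was lower (19.0%, beside 29.0%). The excess of rises among all genes depended on the scaling of the libraries: when each library was rescaled by its median ratio, 29.0% of all genes rose and 30.1% fell with a median of 0.01, and 21 members rose and 8 fell with a median of 0.24.

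**Figure D1:**
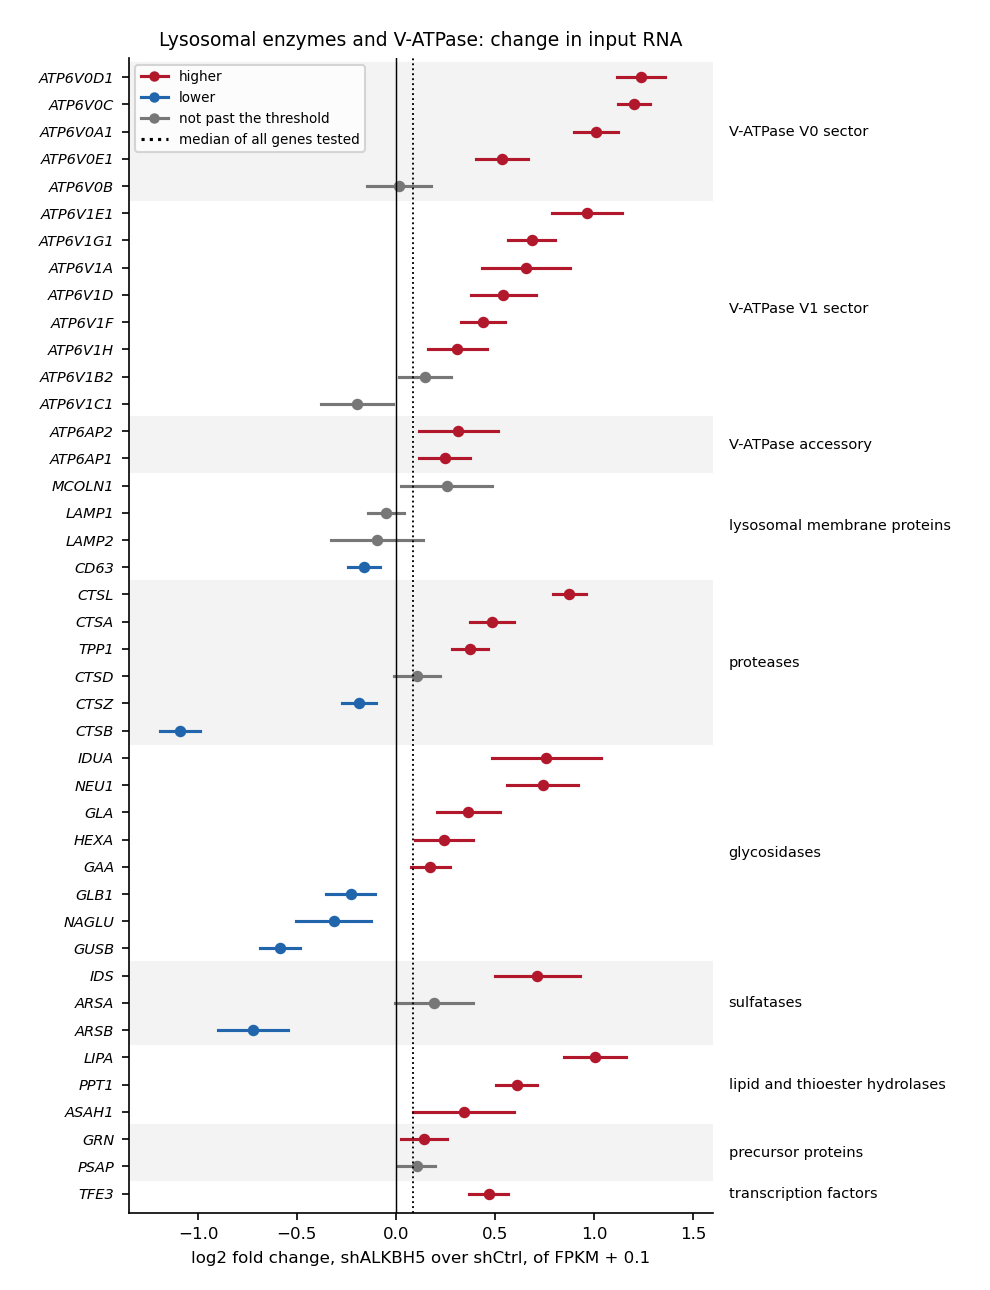
Log2 fold change of FPKM + 0.1 in shALKBH5 over shCtrl input libraries (x axis) for the 42 tested members (y axis), grouped by role. Points are limma estimates and bars their 95% confidence intervals, red for genes that rose, blue for genes that fell and grey for the rest, and the dotted line marks the median of all genes tested, 0.09. No V-ATPase subunit is blue in this fit (ATP6V1C1 passed as lower after median ratio rescaling and without the eBayes trend), while the proteases, glycosidases and sulfatases hold both colours.

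Most of the V-ATPase rose. Of its 15 members 12 rose (80.0%), 0 fell and 3 did not pass in limma, beside 34.7% of all genes tested that rose and 26.2% that fell. The median log2 fold change of the 15 was 0.53. At an unadjusted p under 0.05 the counts were 13 higher and 1 lower, beside 37.0% and 28.0% of all genes at that threshold. The summed level of the 15 was 653.6 to 663.5 FPKM in the shALKBH5 libraries and 423.6 to 449.0 FPKM in the shCtrl libraries. Of the 27 tested members outside the pump, 14 rose (51.9%) and 7 fell (25.9%), with a median of 0.19. The share of them that fell was near the 26.2% of all genes tested. After median ratio rescaling 11 of the 15 pump members rose (73.3%) and 1 fell (6.67%), and 10 of the other 27 rose (37.0%) and 7 fell (25.9%). Of all genes tested 29.0% rose and 30.1% fell after this rescaling, so the other 27 were nearer to all genes than the pump was.

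In the V0 sector 4 of 5 subunits rose (80.0%, beside 34.7% of all genes tested). ATP6V0D1 (ENSG00000159720, chromosome 16, 67438014 to 67481181, minus strand, GRCh38), the d subunit that links the rotor to the central stalk, was 14.6, 14.4 and 14.7 FPKM in shALKBH5 and 6.45, 5.87 and 6.11 FPKM in shCtrl libraries. Its lowest shALKBH5 value was far above its highest shCtrl value, and it rose by a log2 fold change of 1.24 (SE 0.0519, limma adjusted p = 1.932e-06). ATP6V0C (ENSG00000185883, chromosome 16, 2513952 to 2520218), which encodes the proteolipid c subunit of the proton-carrying ring, was 125.9, 121.0 and 127.2 FPKM in shALKBH5 and 53.9, 54.3 and 54.1 FPKM in shCtrl libraries. The groups of ATP6V0C values did not overlap, and it rose by 1.20 (SE 0.0346, limma adjusted p = 5.433e-07). ATP6V0A1 (ENSG00000033627, chromosome 17, 42458844 to 42522582), an isoform of the a subunit that forms the proton half-channels, was 9.89, 9.67 and 9.86 FPKM in shALKBH5 and 4.87, 4.84 and 4.75 FPKM in shCtrl libraries. It rose by 1.01 with groups far apart (SE 0.0475, limma adjusted p = 3.312e-06). ATP6V0E1, a small membrane subunit, rose less, from 62.2 ± 3.68 to 90.0 ± 4.01 FPKM (SD, n = 3 each, log2 fold change 0.53).

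ATP6V0B was the V0 member that did not pass. It encodes the c″ subunit, a homologue of ATP6V0C in the same ring, and its level was 28.9 ± 0.850 FPKM in shALKBH5 and 28.7 ± 2.75 FPKM in shCtrl cells (SD, n = 3 each), with a log2 fold change of 0.02 and a 95% confidence interval of -0.15 to 0.18. The ratio of ATP6V0C to ATP6V0B within a library was accordingly 4.32, 4.32 and 4.29 in shALKBH5 and 1.69, 2.03 and 1.97 in shCtrl libraries. A second such pair was taken from the a subunit isoforms, of which ATP6V0A2 and ATP6V0A4, at low levels, rose by 0.61 and 0.86 (limma adjusted p = 0.00603 and 0.0118). TCIRG1, which encodes the a3 isoform and is not among the 44, had a mean of 9.98 FPKM in shALKBH5 and 9.63 FPKM in shCtrl cells and did not pass the test, and the ratio of ATP6V0A1 to TCIRG1 was 0.983 ± 0.0182 and 0.501 ± 0.00899 (SD, n = 3 each). The within-library ratios were chosen after the values had been seen and restate the changes of their genes, so they are given without a test.

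In the V1 sector 6 of 8 subunits rose. ATP6V1E1 (ENSG00000131100, chromosome 22, 17592136 to 17628749), part of the peripheral stalks, was 29.1, 32.8 and 30.0 FPKM in shALKBH5 and 14.3, 17.0 and 15.7 FPKM in shCtrl libraries. The lowest shALKBH5 value was well above the highest shCtrl value, and the gene rose by 0.96 (SE 0.0751, limma adjusted p = 3.299e-05). A pseudogene, ATP6V1E1P1, is listed at 4.80% of its level, so reads could have been split between the pair. The other stalk subunit ATP6V1G1 rose by 0.68, the catalytic A subunit ATP6V1A by 0.66, the rotor subunits ATP6V1D and ATP6V1F by 0.54 and 0.44, and the regulatory subunit ATP6V1H by 0.31, each with groups that did not overlap. ATP6V1B2, the B subunit that alternates with A in the hydrolysing head, was 11.9 ± 0.172 against 10.8 ± 0.668 FPKM and did not pass (log2 fold change 0.15, limma adjusted p = 0.0570). ATP6V1C1, the C subunit that joins the stalks when V1 docks on V0, was the member of the pump whose shALKBH5 values all lay lower, at 2.83 ± 0.148 against 3.26 ± 0.201 FPKM. Its log2 fold change of -0.20 did not pass (limma adjusted p = 0.0579), and passed as lower after median ratio rescaling, at -0.27 (limma adjusted p = 0.0122), and without the eBayes trend (limma adjusted p = 0.0499). The accessory subunits ATP6AP1 and ATP6AP2 rose by 0.25 and 0.31. The call of ATP6AP2 rested on shALKBH5 replicate 2, without which its log2 fold change was 0.27 (limma adjusted p = 0.0541), and that of ATP6AP1 was lost after median ratio rescaling, at 0.17 (limma adjusted p = 0.0586).

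Subunits of the pump were far from equal in level. In shCtrl cells the order by mean level was led by ATP6V1F at 167.5 FPKM, ATP6V0E1 at 62.2 FPKM and ATP6V0C at 54.1 FPKM, and closed by ATP6AP2 at 4.34 FPKM and ATP6V1C1 at 3.26 FPKM. The values of neighbours in this order overlapped between libraries for 4 pairs, namely ATP6AP1 and ATP6V0B, ATP6V1A and ATP6V1B2, ATP6V1H and ATP6V0D1, and ATP6V0D1 and ATP6V1D. In shALKBH5 cells ATP6V0C, at 124.7 FPKM, stood above ATP6V0E1, at 90.0 FPKM, with no overlap. ATP6V0D1 and ATP6V0A1, at 14.6 and 9.81 FPKM, there stood above ATP6V1D, at 8.77 FPKM, and ATP6V1H, at 8.15 FPKM.

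**Figure D2:**
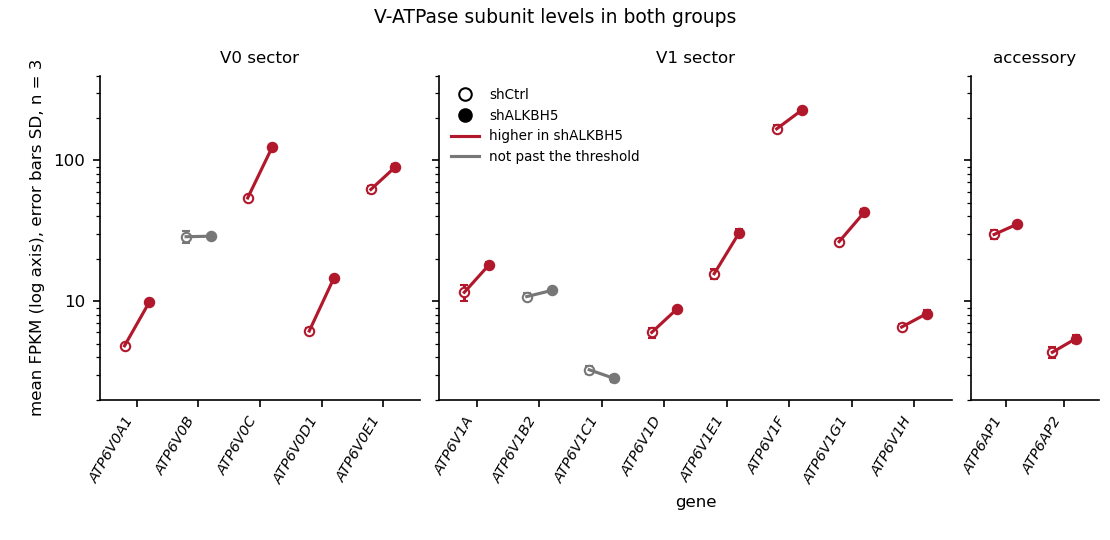
Mean FPKM on a log axis (y axis) of each V-ATPase member (x axis) in shCtrl (open points) and shALKBH5 (filled points) input libraries, in panels for the V0 sector, the V1 sector and the accessory subunits. Error bars are SD over 3 libraries, red lines join genes that rose and grey lines genes that did not pass. ATP6V0C climbs from 54.1 to 124.7 FPKM while ATP6V0B stays at 28.7 and 28.9 FPKM.

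Of the 4 lysosomal membrane proteins 0 rose and 1 fell in limma, beside 34.7% and 26.2% of all genes tested. At an unadjusted p under 0.05 1 was higher and 1 lower, beside 37.0% and 28.0% of all genes. With 4 genes, these counts are a description. LAMP1 (ENSG00000185896, chromosome 13, 113297239 to 113323672), an abundant glycoprotein of the lysosomal membrane, was 56.5, 57.0 and 58.5 FPKM in shALKBH5 and 61.6, 57.7 and 59.1 FPKM in shCtrl libraries. These values overlapped, and its log2 fold change was -0.05 (SE 0.0389, limma adjusted p = 0.288). CD63 (chromosome 12, 55725323 to 55729707), a tetraspanin of late endosomes and melanosomes and the member with the highest mean in shCtrl cells, was 234.7, 226.2 and 231.1 FPKM in shALKBH5 and 265.3, 252.9 and 256.5 FPKM in shCtrl libraries. It fell by 0.16 on the log2 scale with groups that did not overlap (SE 0.0346, limma adjusted p = 0.00493). The shCtrl values of CD63 overlapped those of PSAP, which had a mean of 253.7 FPKM there. LAMP2 did not pass, at 4.85 ± 0.355 against 5.20 ± 0.597 FPKM. MCOLN1, the lysosomal cation channel TRPML1, was 5.85 ± 0.425 against 4.90 ± 0.613 FPKM and did not pass (limma adjusted p = 0.0559), but passed as higher without shCtrl replicate 1 (log2 fold change 0.35, limma adjusted p = 0.00732).

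The proteases moved in both directions. CTSL (ENSG00000135047, chromosome 9, 87726109 to 87731469), the cysteine protease cathepsin L, was 88.9, 90.4 and 93.8 FPKM in shALKBH5 and 50.1, 49.5 and 49.3 FPKM in shCtrl libraries, and rose by 0.87 (SE 0.0356, limma adjusted p = 1.657e-06). CTSB (ENSG00000164733, chromosome 8, 11842524 to 11869448), the related cysteine protease cathepsin B, was 18.7, 18.7 and 19.5 FPKM in shALKBH5 and 41.7, 39.0 and 41.0 FPKM in shCtrl libraries. It fell by 1.09 on the log2 scale, the largest fall of the 42 members (SE 0.0428, limma adjusted p = 1.494e-06). The ratio of CTSL to CTSB within a library, which restates these changes, was 4.76, 4.83 and 4.82 in shALKBH5 and 1.20, 1.27 and 1.20 in shCtrl libraries. CTSB ranked 12 among the 44 members by mean level in shCtrl cells and 19 in shALKBH5 cells, and CTSL ranked 10 and 6.

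Cathepsin Z and the other proteases changed less. CTSZ (chromosome 20, 58995185 to 59007254), a carboxypeptidase, was 68.2, 68.6 and 71.5 FPKM in shALKBH5 and 81.1, 78.1 and 78.2 FPKM in shCtrl libraries, and fell by 0.19 on the log2 scale (SE 0.0370, limma adjusted p = 0.00336). CTSA, which protects NEU1 and GLB1 in a complex, and TPP1, a tripeptidyl peptidase, rose by 0.48 and 0.37. CTSD (chromosome 11, 1752755 to 1764573), the main aspartic protease of the lysosome, was 97.5, 92.0 and 95.6 FPKM in shALKBH5 and 93.3, 83.4 and 88.6 FPKM in shCtrl libraries. The CTSD values overlapped, and the log2 fold change of 0.10 did not pass (SE 0.0493, limma adjusted p = 0.102), but did without shCtrl replicate 1 (0.14, limma adjusted p = 0.0262). After median ratio rescaling it was 0.027 (limma adjusted p = 0.733). CTSK, under the filter, was 0.493, 0.540 and 0.684 FPKM in shALKBH5 and 0.390, 0.310 and 0.347 FPKM in shCtrl libraries.

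Of the 8 glycosidases, which remove sugars from glycoproteins, glycolipids and glycosaminoglycans, 5 rose (62.5%) and 3 fell (37.5%). Of all genes tested 34.7% rose and 26.2% fell, and with 8 genes these counts are a description. IDUA (ENSG00000127415, chromosome 4, 986997 to 1004564), the iduronidase of dermatan and heparan sulfate breakdown, was 2.89, 2.94 and 2.82 FPKM in shALKBH5 and 1.96, 1.65 and 1.42 FPKM in shCtrl libraries, and rose by 0.76 (SE 0.118, limma adjusted p = 0.00101). NEU1 (ENSG00000204386, chromosome 6, 31857659 to 31862822), the lysosomal sialidase, was 8.92, 8.95 and 9.22 FPKM in shALKBH5 and 5.88, 4.84 and 5.41 FPKM in shCtrl libraries, and rose by 0.74 (SE 0.0758, limma adjusted p = 1.240e-04). Neither gene had overlapping groups. GLA, HEXA and GAA, the enzymes whose loss gives Fabry, Tay-Sachs and Pompe disease, rose by 0.36, 0.24 and 0.17, and the calls of HEXA and GAA were lost after median ratio rescaling (log2 fold changes 0.17 and 0.10, limma adjusted p = 0.0922 and 0.159).

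GUSB (ENSG00000169919, chromosome 7, 65960684 to 65982215), the β-glucuronidase, fell most among the glycosidases. It was 9.07, 9.49 and 9.28 FPKM in shALKBH5 and 14.1, 13.8 and 14.1 FPKM in shCtrl libraries, and fell by 0.59 on the log2 scale (SE 0.0436, limma adjusted p = 2.645e-05). GUSB has 7 listed pseudogenes, the highest of which, GUSBP16, stood at 16.3% of its level, so its reads may be split. NAGLU (chromosome 17, 42536241 to 42544449), which removes N-acetylglucosamine from heparan sulfate, was 5.81, 6.89 and 6.46 FPKM in shALKBH5 and 8.41, 7.37 and 8.10 FPKM in shCtrl libraries, and fell by 0.31 on that scale (SE 0.0807, limma adjusted p = 0.0115). GLB1 (chromosome 3, 32996609 to 33097202), the β-galactosidase measured in senescence staining, was 17.5, 18.0 and 18.1 FPKM in shALKBH5 and 22.1, 19.7 and 21.2 FPKM in shCtrl libraries, and fell by 0.23 (SE 0.0523, limma adjusted p = 0.00686). The groups of GUSB, NAGLU and GLB1 values did not overlap, though those of NAGLU nearly met.

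The sulfatases split as well. ARSB (ENSG00000113273, chromosome 5, 78777209 to 78986087), which desulfates dermatan and chondroitin sulfate, was 1.99, 2.28 and 2.08 FPKM in shALKBH5 and 3.47, 3.62 and 3.57 FPKM in shCtrl libraries. It fell by 0.72 on the log2 scale with no overlap (SE 0.0758, limma adjusted p = 1.413e-04). IDS, which removes sulfate from iduronic acid before IDUA acts, rose by 0.71, from 4.47 ± 0.554 to 7.35 ± 0.187 FPKM (SD, n = 3 each), and ARSA did not pass at 2.64 ± 0.205 against 2.29 ± 0.0910 FPKM. Enzymes of the same pathway of dermatan and heparan sulfate breakdown thus lay on either side, with IDS and IDUA higher and ARSB, GUSB and NAGLU lower in shALKBH5 cells.

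All 3 lipid and thioester hydrolases rose, beside 34.7% of all genes tested. LIPA (ENSG00000107798, chromosome 10, 89213569 to 89414557), the acid lipase that frees cholesterol from its esters, was 12.3, 13.5 and 12.6 FPKM in shALKBH5 and 5.88, 6.40 and 6.74 FPKM in shCtrl libraries. Its groups were far apart, and it rose by 1.01 (SE 0.0669, limma adjusted p = 1.530e-05). PPT1, which removes palmitate from proteins, rose by 0.61, from 47.2 ± 0.827 to 72.2 ± 3.33 FPKM. ASAH1, the acid ceramidase, rose by 0.34 from a low level, 1.03 ± 0.0897 to 1.32 ± 0.0420 FPKM (limma adjusted p = 0.0277). This call was lost when any library other than shCtrl replicate 2 was left out (log2 fold changes 0.28 to 0.36, limma adjusted p = 0.0594 to 0.0902). It was also lost after median ratio rescaling (0.27, limma adjusted p = 0.0561) and with the replicate number as a block (limma adjusted p = 0.0682). The lowest value of ASAH1 over the alternative settings was 0.20. Of the precursor proteins, GRN, which is cut into granulins, rose by 0.14 (limma adjusted p = 0.0418). Its call was lost when any library other than shCtrl replicate 1 was left out (log2 fold changes 0.11 to 0.16, limma adjusted p = 0.0523 to 0.137) and after median ratio rescaling (0.061, limma adjusted p = 0.434). The call of GRN was also lost with no filter on low values, with the block and without the eBayes trend (limma adjusted p = 0.0972, 0.0627 and 0.1005). PSAP, the saposin precursor and the most abundant member in shALKBH5 cells, was 272.8 ± 7.27 against 253.7 ± 9.17 FPKM and did not pass (limma adjusted p = 0.0530), but did without shCtrl replicate 1 (log2 fold change 0.13, limma adjusted p = 0.0165). Its log2 fold change went down to 0.027 over the alternative settings.

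**Figure D3:**
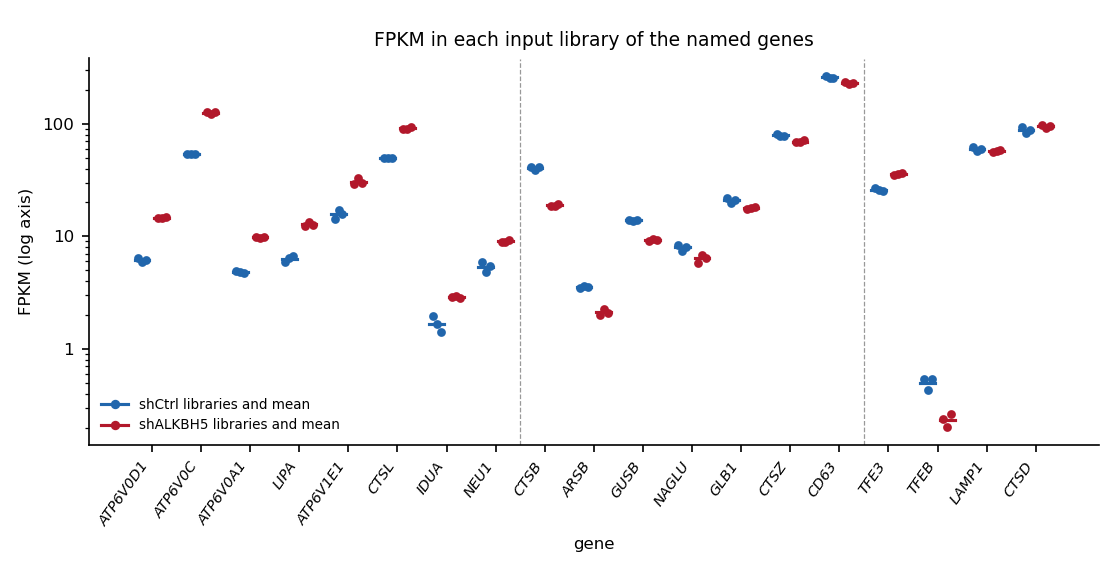
FPKM on a log axis (y axis) in each of the 3 shCtrl (blue) and 3 shALKBH5 (red) input libraries for 19 members (x axis), with horizontal bars at the means. The dashed lines separate the 8 members with the largest rises, the 7 that fell, and TFE3, TFEB, LAMP1 and CTSD. The colours overlap in the plot of LAMP1 and CTSD alone.

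The MiT factors of the list went opposite ways. TFE3 (ENSG00000068323, chromosome X, 49028726 to 49043410) was 35.1, 35.8 and 36.8 FPKM in shALKBH5 and 26.8, 25.7 and 25.3 FPKM in shCtrl libraries, and rose by 0.47 with no overlap (SE 0.0414, limma adjusted p = 6.006e-05). TFEB (ENSG00000112561, chromosome 6, 41683978 to 41736259), the lowest of the 44 genes in shALKBH5 cells, was 0.238, 0.202 and 0.261 FPKM in shALKBH5 and 0.538, 0.434 and 0.536 FPKM in shCtrl libraries. All shALKBH5 values of TFEB were below all shCtrl values, and with no filter on low values its log2 fold change was -0.85 (SE 0.171, limma adjusted p = 0.0143). MITF, not among the 44, was 1.57, 0.913 and 1.31 FPKM in shALKBH5 and 0.675, 1.01 and 0.646 FPKM in shCtrl libraries. The MITF values overlapped, and its log2 fold change of 0.63 (SE 0.232, limma adjusted p = 0.0475) was lost under 8 of 13 alternative settings, over which it ranged from 0.35 to 0.83. TFE3 thus had the highest RNA level of these MiT genes in every library.

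MiT factors bind the CLEAR element, whose palindromic core is TCACGTGA, an extended form of the E-box CACGTG. RefSeq promoters (GRCh38.p14, 250 bases before to 50 after a start) were matched by symbol for 31 of the 44 members, which had 46 promoters. The core was present in 6 of the 31 members (19.4%) and in 1.18% of the 27305 genes of the promoter table, and the E-box, which the core contains, in 11 members (35.5%) and 8.77% of genes. The match of letters is a description and not a bound site. Many lysosomal genes are known targets of MiT factors, so the higher share among the members was to be expected and is not a test. A window of 30 bases around the core, in capitals, is shown for each of the 6 members, 5′ to 3′ on the strand of the gene.

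ATP6V0D1, chr16:67481199-67481228, minus strand: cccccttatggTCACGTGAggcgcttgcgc
ATP6V1G1, chr9:114587699-114587728, plus strand: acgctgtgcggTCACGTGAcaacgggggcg
CTSA, chr20:45891298-45891327, plus strand: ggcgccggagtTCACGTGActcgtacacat
GAA, chr17:80101493-80101522, plus strand: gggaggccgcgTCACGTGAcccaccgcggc
LAMP1, chr13:113297199-113297228, plus strand: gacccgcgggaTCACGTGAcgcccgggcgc
MCOLN1, chr19:7522571-7522600, plus strand: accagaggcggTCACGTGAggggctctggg

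The cores shown began 60, 59, 26, 77, 29 and 42 bases before the RefSeq start of the matched promoter in ATP6V0D1, ATP6V1G1, CTSA, GAA, LAMP1 and MCOLN1. That start can differ from the gene limits of the expression table, within which the core of CTSA lies. GAA, LAMP1 and MCOLN1 each held a further copy nearer to the start. In RNA level ATP6V0D1, ATP6V1G1, CTSA and GAA rose, with log2 fold changes of 1.24, 0.68, 0.48 and 0.17, whereas LAMP1 and MCOLN1, at -0.05 and 0.26, did not pass. Of the 25 members whose matched promoters had no core, 24 were tested, of which 17 rose, 5 (GUSB, ARSB, CTSZ, GLB1 and CD63) fell and 2 did not pass. Of all genes tested 34.7% rose and 26.2% fell. The median log2 fold change was 0.37 for the 6 members with a core and 0.41 for those without, beside 0.09 for all genes tested. With 6 members holding a core, these values are a description.

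The m6A data consist of 1 peak list per group and a table of differing peaks. None of them holds a value per IP library, so no peak difference could be checked across replicates here. Peaks were placed on 37 of the 44 members in the shALKBH5 list (73 of 46039 peaks) and on 33 members in the shCtrl list (65 of 44304 peaks), with 32 members in both lists. Of the 42 members tested for expression 83.3% and 76.2% had a peak in the shALKBH5 and shCtrl lists, beside 87.1% and 86.5% of the 12985 genes tested. ATP6V0C, ATP6V0D1, ATP6V1H, CD63 and CTSK had peaks in the shALKBH5 list and none in the shCtrl list, CTSD had the reverse, and ATP6V0B, ATP6V1A, ATP6AP2, LAMP2, PPT1 and GRN had none in either. Of the 6 members with peaks in 1 list, CD63 alone kept a peak under a stricter setting, which required an enrichment of IP over input of 2 or more and a log10 FDR of at most -2. The share of all genes with peaks in 1 list alone is not given here, so these 6 are a description of the members. The peaks of ATP6V0C and ATP6V0D1 had fold enrichments of at most 1.73 and 1.85.

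As for transcripts in general, the 3'UTR held the largest share of the peaks. It held 38 of the 73 members' peaks in the shALKBH5 list (52.1%, 95% Wilson interval 40.8 to 63.1) and 37 of 65 in the shCtrl list (56.9%, 44.8 to 68.2), beside 45.5% and 46.2% of all peaks. Of all peaks, however, 19.1% and 18.1% lay in exons of noncoding RNAs, where no member had one, and over the 5 classes of region that members had the share of all genes was 56.5% and 56.6%. These intervals cover counting error only. The median fold enrichment was 3.52 and 4.64 for the members and 5.31 and 5.25 for all peaks of the lists. GLA carried the most peaks, 7 in the shALKBH5 and 6 in the shCtrl list. The other members with at least 4 peaks in either list were CTSA with 4 and 4, CTSB with 3 and 4, IDS with 2 and 5, TPP1 with 4 and 2, and NAGLU with 4 and 1. Of the IDS peaks several overlapped each other within a list, and 3 of the GLA peaks in the shALKBH5 list had no annotated region. The highest enrichment of a member was on LAMP1, whose 3'UTR peak at chr13:113322656-113322835 had 33.8 in the shALKBH5 list and 28.7 in the shCtrl list.

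Of the members' shALKBH5 peaks 71.2% overlapped a shCtrl peak on the same strand, and of their shCtrl peaks 78.5% overlapped a shALKBH5 peak, beside 78.1% and 81.3% of all peaks. Overlapping peaks formed 49 pairs in 30 members. The fold enrichment was higher in the shALKBH5 list in 21 pairs and lower in 28, with a median ratio of 0.969, beside 0.966 over the 31220 pairs of all genes. The balance of higher and lower pairs among the members was thus near that of all genes, of whose pairs 53.8% were lower, against 57.1% for the members.

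The pairs that stood furthest above the diagonal were an intronic peak of CTSA, with 17.6 in the shALKBH5 and 6.38 in the shCtrl list, a 3'UTR peak of CTSB with 13.6 and 7.43, a GLA peak with no annotated region with 5.51 and 3.40, and an intronic and a 3'UTR peak of TFE3 with 9.80 and 6.38 and with 7.59 and 5.29. Furthest below it were 3'UTR peaks of ATP6AP1, with 3.81 and 12.8, of ATP6V1C1, with 4.02 and 11.0, and of NEU1, with 4.53 and 8.11, an intronic peak of GLA, with 2.94 and 7.66, and a pair of intronic ATP6V0A1 peaks, with 2.62 and 5.11. The remaining TFE3 peak, in the 5'UTR, had 14.1 and 11.1. The intronic TFE3 pair, both GLA pairs and the ATP6V0A1 pair, 4 of these 10, did not meet the stricter setting in both lists. The ATP6V0A1 pair rests on an overlap of 1 bp, and a further shALKBH5 peak of the gene, with a fold enrichment of 11.0, touched the same shCtrl peak by 1 bp on its other side and would place the pair above the diagonal. Without this pair, whose direction thus depends on the pairing, 21 pairs were higher and 27 lower in the shALKBH5 list, and with the other peak 22 were higher and 27 lower (55.1%). Of the 49 pairs 32 met the stricter setting in both lists, of which 12 were higher and 20 lower (62.5%) in the shALKBH5 list, beside 54.0% lower of the 22084 such pairs of all genes. Across the 49 pairs, which share genes and libraries, Spearman's rho between the log2 ratio of enrichment and the log2 fold change of RNA was -0.06, given as a description.

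**Figure D4:**
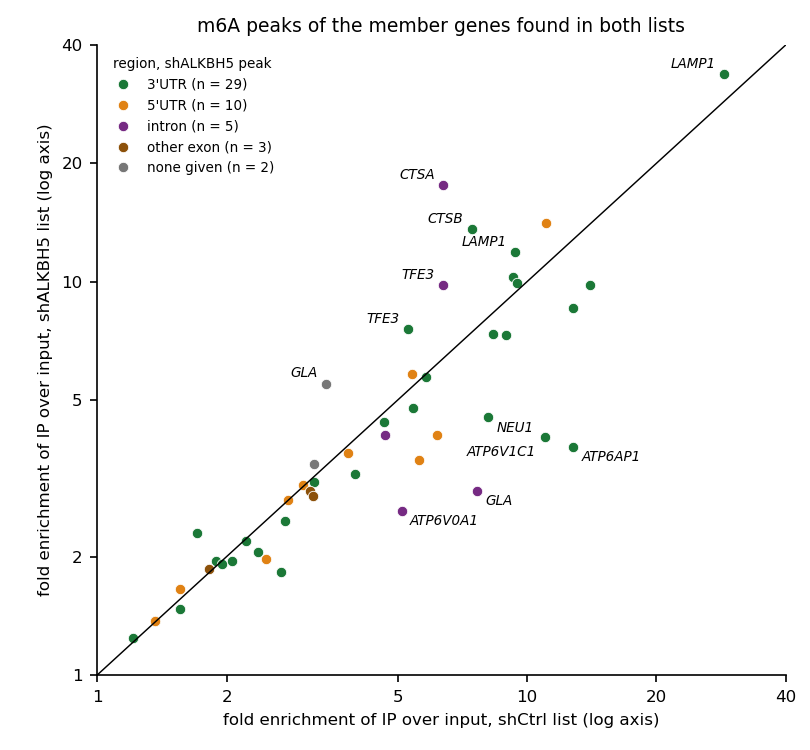
Fold enrichment of IP over input of the 49 overlapping peak pairs of members in the shCtrl list (x axis) and the shALKBH5 list (y axis), both on log axes, coloured by the annotated region of the shALKBH5 peak. The line marks equal values, and the named points are the 5 pairs furthest to either side and the LAMP1 pairs. Of the pairs 21 lie above the line and 28 below it, among them the ATP6V0A1 pair, which overlaps by 1 bp.

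The deposited table of differing peaks, which holds 6513 peaks, listed 10 peaks on 9 members, of which 9 were in the 3'UTR. They were on ASAH1, with 2 peaks, and on ATP6V0E1, CTSB, CTSL, CTSZ, GLB1, LIPA, TFE3 and TPP1. Of the members' peaks 13.7% in the shALKBH5 list and 13.8% in the shCtrl list overlapped a listed peak, beside 15.8% and 16.1% of all peaks, shares near the background. Of the 49 pairs 7, on 7 members, lay at a listed peak, and the fold enrichment was higher in the shALKBH5 list in 2 of them and lower in 5, beside 61.1% lower of the 5586 such pairs of all genes. With 7 pairs, these counts are a description of the members and not a result about them. It was 7.59 in the shALKBH5 and 5.29 in the shCtrl list for TFE3 and 2.30 and 1.71 for LIPA, whereas CTSZ had 7.32 and 8.94, ATP6V0E1 4.39 and 4.64, GLB1 2.06 and 2.37, CTSL 1.92 and 1.95, and CTSB 1.47 and 1.56.

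Markers of other cell states moved beside these genes. The immune list, of which PTPRC and CD3E were not among the listed genes, summed to 441.9 to 493.9 FPKM in shALKBH5 and 191.9 to 194.1 FPKM in shCtrl libraries, nearly all of it from HLA-DRA and from CD68, itself a lysosomal glycoprotein, which rose by 1.27 and 1.32. The dedifferentiated melanoma list of AXL, NGFR and EGFR summed to 51.3 to 53.2 FPKM in shALKBH5 and 109.9 to 124.0 FPKM in shCtrl libraries. In this list 3 of 3 fell, beside 26.2% of all genes tested. Of the 4 melanocyte genes tested, S100B and S100A1 rose by 1.32 and 1.21, MITF passed with the unstable call given above, and SOX10, the most abundant of them, had a log2 fold change of -0.03 and did not pass. The keratinocyte, fibroblast and endothelial lists each summed to at most 4.07 FPKM in any library. The part of these markers in the lysosomal changes was not tested.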

How the data were processed

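Input RNA-Seq and MeRIP-Seq data of A375 cells with shALKBH5 and with shCtrl were used, and samples were grouped from their labels. The authors deposited FPKM per input library in 1 table and, beside it, their own fold change, p-value and q-value of the groups, which were not used. They deposited 1 peak list per group, in which each peak has a fold enrichment (a ratio of IP over input) and a log10 FDR, treated as a score. The deposited table of differing peaks holds their log2 fold change, p-value and FDR per peak, and only its positions, genes and regions were used. Whether IP libraries were pooled before peak calling, the peak caller and the aligner are not given in the sources used here. The submitters' processing notes name mm10, a mouse build, but all 44 members lie on the chromosome that RefSeq GRCh38.p14 gives them, 36 with an identical start or end, so coordinates are read as GRCh38. Starts in the peak lists were changed to count from 1.

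No counts were used, and low FPKM values showed no common steps (the most frequent ratio between replicates took up 0.216% and 0.167% of low values), so the depth is unknown and the number of libraries limits the precision. At most 0.123% of values were identical between any libraries. limma 3.58.1 (R 4.3.3, lmFit, eBayes with trend) was fitted on log2(FPKM + 0.1) without a block, since the study's methods name none, for genes that averaged 0.5 FPKM or more, two-sided, and the script was tested on simulated data. Though the study's methods name edgeR, FPKM values are not counts and edgeR was not run. Peaks were overlapped on 1 strand by at least 1 bp. Other steps used Python 3.11.15, pandas 2.3.3, scipy 1.17.1 and matplotlib 3.10.9.

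Members, gene lists and the naming rule were chosen with earlier results of these data known. The rule names in full the 8 members that rose most, up to 8 that fell most (7 qualified), TFEB, TFE3, LAMP1, CTSD and ALKBH5, of the other pathway genes 3 each way and MITF, and, for m6A, the members with most peaks and 5 peak pairs each way. Other genes were named as examples or because of an exception. As alternatives, the pseudocount was set to 1 or 0.01, the filter was dropped or raised to 1 FPKM, libraries were rescaled by their median ratio, replicate numbers entered as a block, the eBayes trend was dropped and each library was left out. For peaks, they were a stricter setting (fold enrichment of at least 2 and a log10 FDR of at most -2) and a reciprocal overlap of 50%. Of the members, 13 were not matched by symbol in the promoter table used, though RefSeq places all 44: ATP6V0E1, ATP6V1A, ATP6V1B2, ATP6V1C1, ATP6V1H, LAMP2, CTSB, CTSK, HEXA, NAGLU, ARSA, ASAH1 and PSAP. Sequences under the peaks were not analysed here.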

Additional observations from a re-analysis of the deposited data

How the results depend on the processing

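Of the 33 members that rose or fell, 27 (20 higher and 7 lower) kept their call in each of the 13 alternatives for expression. The others, ASAH1, ATP6AP1, ATP6AP2, GAA, GRN and HEXA, lost it in at least 1 and kept their direction, and ATP6V0B, which had no call, changed sign. The number of members that rose was 23 to 28 and that fell 7 with each library left out, 25 and 8 with no filter, and 21 and 8 after median ratio rescaling. The median log2 fold change of the members, 0.31, was 0.28 to 0.35 with a library left out, 0.25 with a pseudocount of 1 and 0.24 after rescaling. The number of other pathway genes that rose was 25 to 30 over all alternatives and that fell 12 to 17. Same-numbered libraries of the groups did not deviate together (r = 0.02, -0.05 and 0.06 across genes), so the numbers were not taken to pair them. With the replicate number as a block, 24 members rose and 7 fell, with a median of 0.31, and 27 and 13 of the other pathway genes. MITF was the named gene that lost its call, in 8 alternatives, with limma adjusted p = 0.0576 to 0.148. Among the peaks, the stricter setting left 28 members with a peak in the shALKBH5 list and 27 in the shCtrl list, and a reciprocal overlap of 50% lowered the share of overlapping peaks to 57.5% in the shALKBH5 and 64.6% in the shCtrl list, beside 51.6% and 53.7% of all peaks. The cause of these shifts was not tested. FPKM without counts gives no counting interval, and peak lists without values per library give no error for any enrichment.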

Other observations

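The pathway around the 44 members was described with 74 further genes, of which 63 were tested, 30 rose (47.6%) and 14 fell (22.2%), with a median log2 fold change of 0.21, beside 34.7% and 26.2% of all genes tested and a median of 0.09. After median ratio rescaling 26 rose (41.3%) and 16 fell (25.4%), beside 29.0% and 30.1% of all genes. The largest rise was that of M6PR (chromosome 12, 8940361 to 8949761), the cation-dependent mannose 6-phosphate receptor that carries hydrolases to the lysosome, which was 87.8, 93.6 and 86.8 FPKM in shALKBH5 and 30.9, 33.7 and 34.9 FPKM in shCtrl libraries (log2 fold change 1.43, SE 0.0555, limma adjusted p = 1.451e-06). The other receptor, IGF2R, fell by 0.17 on the log2 scale, and SORT1, a further sorting receptor, fell by 0.65. TMEM192, a lysosomal membrane protein, was 2.20, 2.39 and 2.40 against 1.10, 1.33 and 1.30 FPKM and rose by 0.86 (SE 0.102, limma adjusted p = 2.647e-04), or by 0.57 where the pseudocount was 1. ATP6V0A4, the a4 isoform of the pump, rose by 0.86 from a low level, 0.579, 0.294 and 0.447 FPKM in shCtrl to 0.839, 0.811 and 0.910 FPKM in shALKBH5 libraries (SE 0.220, limma adjusted p = 0.0118), a value that was 0.37 with a pseudocount of 1.

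GALC, the galactocerebrosidase, fell most, from 1.02, 1.31 and 1.35 FPKM in shCtrl to 0.241, 0.310 and 0.205 FPKM in shALKBH5 libraries (log2 fold change -1.92, SE 0.190, limma adjusted p = 1.052e-04), and its value ranged from -2.25 to -0.83 with the pseudocount. LAPTM4A, a lysosomal transmembrane protein, was 35.7, 38.7 and 35.6 FPKM in shALKBH5 and 90.1, 93.1 and 97.1 FPKM in shCtrl libraries and fell by 1.35 (SE 0.0488, limma adjusted p = 1.129e-06). OSTM1, the β subunit of the chloride-proton exchanger CLCN7, fell by 0.72 (SE 0.161, limma adjusted p = 0.00630) (log2 value -0.41 where the pseudocount was 1), whereas CLCN7 itself rose by 0.37. Of the Ragulator subunits, which tether mTORC1 control to the lysosome, LAMTOR1, LAMTOR3 and LAMTOR4 rose by 0.62, 0.59 and 0.41, LAMTOR5 fell by 0.57, and LAMTOR2 was 28.2 against 28.1 FPKM. These genes other than M6PR, TMEM192, ATP6V0A4, GALC, LAPTM4A and OSTM1 were named after their values had been seen.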
